A study of Homo sapiens with 24 samples.

Results

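The nuclear genes for mitochondrial ribosomal proteins were followed in HCT116, a human colorectal carcinoma cell line, under ATP citrate lyase depletion and butyrate. The genes were those whose symbol starts with MRPL or MRPS followed by a digit. They numbered 74 of the 18172 genes tested, 46 of them MRPL (large subunit) and 28 MRPS (small subunit). Cells carried either siACL, a small interfering RNA against ATP citrate lyase (ACLY), or the control siMock, and each arm received no butyrate or a dose of 0.5, 2 or 5 mM over 3 days. This gave 8 groups of 3 arrays, called biological replicates in the labels: siACL untreated and with 0.5, 2 and 5 mM butyrate, and siMock untreated and with 0.5, 2 and 5 mM butyrate. All groups, the siMock untreated one included, were transfected and grown in DMEM with glucose. The comparisons ask how these genes respond to the dose of butyrate, whether the response differs when ACLY is reduced, and whether the subunits differ.

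Mitochondria keep their own ribosome, which translates the few proteins still encoded by mitochondrial DNA, all of them subunits of the respiratory chain and ATP synthase. Its ribosomal RNAs come from mitochondrial DNA, while its proteins are made from nuclear genes in the cytosol and imported. Some of the proteins have counterparts in every ribosome, some only in bacterial ribosomes, and others are found only in mitochondria. Butyrate, a fermentation product of the gut microbiota, is oxidised in the mitochondria of colonocytes and blocks histone deacetylases, and ACLY makes cytosolic acetyl-CoA from citrate.

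By their current systematic names, 26 of the 74 genes encode proteins shared with all ribosomes, 17 proteins shared with bacteria only and 27 proteins specific to mitochondria, while 4 have no such name in the annotation. Some symbols do not match the particle. MRPS30 (systematic name mL65) and MRPS18A (mL66) sit in the large subunit by structure. MRPS36 is now KGD4, a subunit of the 2-oxoglutarate dehydrogenase complex. MRPL42P5 is a pseudogene, and its entry may share sequence with MRPL42. These 4 genes are kept where their symbols put them. The annotation of the arrays lists 77 such symbols, and MRPL39, MRPL44 and MRPS18C are not analysed here.

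Each deposited value is a score: the rank of a gene among all entries of its array, put on the scale of a normal curve that runs from -3.9 to 3.9, with 0 in the middle of the array. A difference of scores is a shift in rank. It has no fold change, and a change common to all genes leaves no trace. Apart from the array positions of markers and the medians of the subunits, levels of different genes are not compared. A gene can also lose rank because others moved above it. In these bulk RNA samples, fewer cells of a kind and less RNA per cell cannot be told apart. A gene was called at a limma adjusted p under 0.05, with Benjamini-Hochberg adjustment over all 18172 genes, and all p-values below are of that kind.

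The targeted gene matched the labels: ACLY differed between siACL and siMock by -0.336, -0.405, -0.415 and -0.625 at 0, 0.5, 2 and 5 mM (siACL minus siMock, SE 0.022, adjusted p at most 6.33e-08). ACLY also fell with butyrate in both arms, so its contrast was not fixed across doses. At 2 and 5 mM it changed by -0.231 and -0.502 in siACL and by -0.152 and -0.213 in siMock. The difference of these responses at 5 mM was -0.289 (adjusted p = 1.28e-05). The epithelial markers EPCAM, KRT8, KRT19 and CDH1 stood between the 86.3 and 99 percentile of the array in every group, as did TACSTD1, an older symbol of EPCAM. The other epithelial markers were lower: CDX2 stood at 68.4 to 78.2, CLDN3 at 52.4 to 63.8, KRT18 at 52.8 to 61.9, CLDN4 at 46.2 to 54.6, GPA33 at 24.8 to 44.1 and KRT20 at 10.7 to 31. Of 6 measured markers of other cell types, COL1A1 stood at 49.4 to 71.7 and the other 5 at or below 41. CLDN3, KRT18, CLDN4, GPA33 and KRT20 thus did not exceed the range of COL1A1, and GPA33 and KRT20 overlapped the other 5. No 2 arrays shared more than 0.222% of their values. Of the 74 mitochondrial ribosomal protein genes, 71 had a mean score above 0. Their median residual SD was 0.0321, against 0.0806 for all genes, and 0.0409 for the 9763 genes with a mean score above 0. Smaller shifts can therefore be called in them than in a typical gene. MRPL42P5, MRPS36 and MRPS14 were the 3 genes below 0 and the least precise, with residual SDs of 0.263, 0.253 and 0.158.

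At 5 mM butyrate, falls in rank outnumbered rises among these genes in both arms. In siACL cells 38 of 74 were lower than in untreated siACL cells and 14 were higher, and in siMock cells 38 were lower than in untreated siMock cells and 18 were higher. Among all genes, 22.6% were lower and 22.7% higher in siACL, and 25.2% were lower and 25.6% higher in siMock. The share of the 74 genes that were lower, 51.4% in each arm, stood above that background, and the share that were higher, 18.9% in siACL and 24.3% in siMock, was near or below it. The share of lower genes also stood above that of the 9763 genes with a mean score above 0, of which 33.9% were lower in siACL and 37.1% in siMock. The share of higher genes stood below theirs, which was 32.3% in siACL and 34.9% in siMock. The median difference of the 74 genes was -0.079 in siACL and -0.075 in siMock, against -0.016 and -0.013 for all genes.

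**Figure D1:**
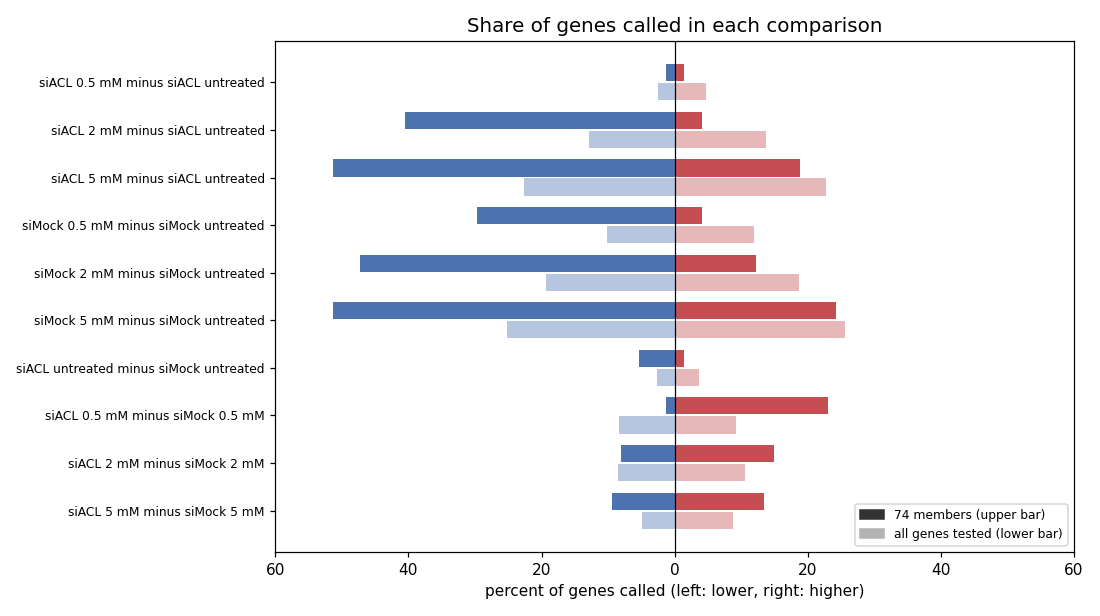
Percent of genes called lower (bars to the left) and higher (bars to the right) in each comparison, with the 74 mitochondrial ribosomal protein genes as the upper, darker bar and all 18172 genes as the lower, paler bar. At 5 mM butyrate 51.4% of the 74 genes were lower in either arm, against 22.6% of all genes in siACL and 25.2% in siMock.

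Both subunits took part. Of the 46 MRPL genes, 24 were lower and 9 higher in siACL, and 24 were lower and 13 higher in siMock. Of the 28 MRPS genes, 14 were lower and 5 higher in each arm. The MRPL median difference was -0.07 in siACL and -0.086 in siMock, and the MRPS median was -0.091 in siACL and -0.06 in siMock. The large-minus-small gap was thus 0.0207 in siACL and -0.0255 in siMock, opposite in sign by this measure. Without siACL 5 mM replicate 3 the siACL gap became -0.00425. Without siMock untreated replicate 3 the siMock gap was -0.00978, and without siMock 5 mM replicate 1 it was -0.0406. The gap of medians on single arrays varied within groups with an SD of 0.0168. By those medians, averaged over a group, MRPS fell further than MRPL in both arms. The sign of the siMock gap thus depended on the measure. By origin of the protein, at 5 mM in siMock, 13 of 26 proteins shared with all ribosomes, 9 of 17 shared with bacteria and 15 of 27 specific to mitochondria were lower.

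**Figure D2:**
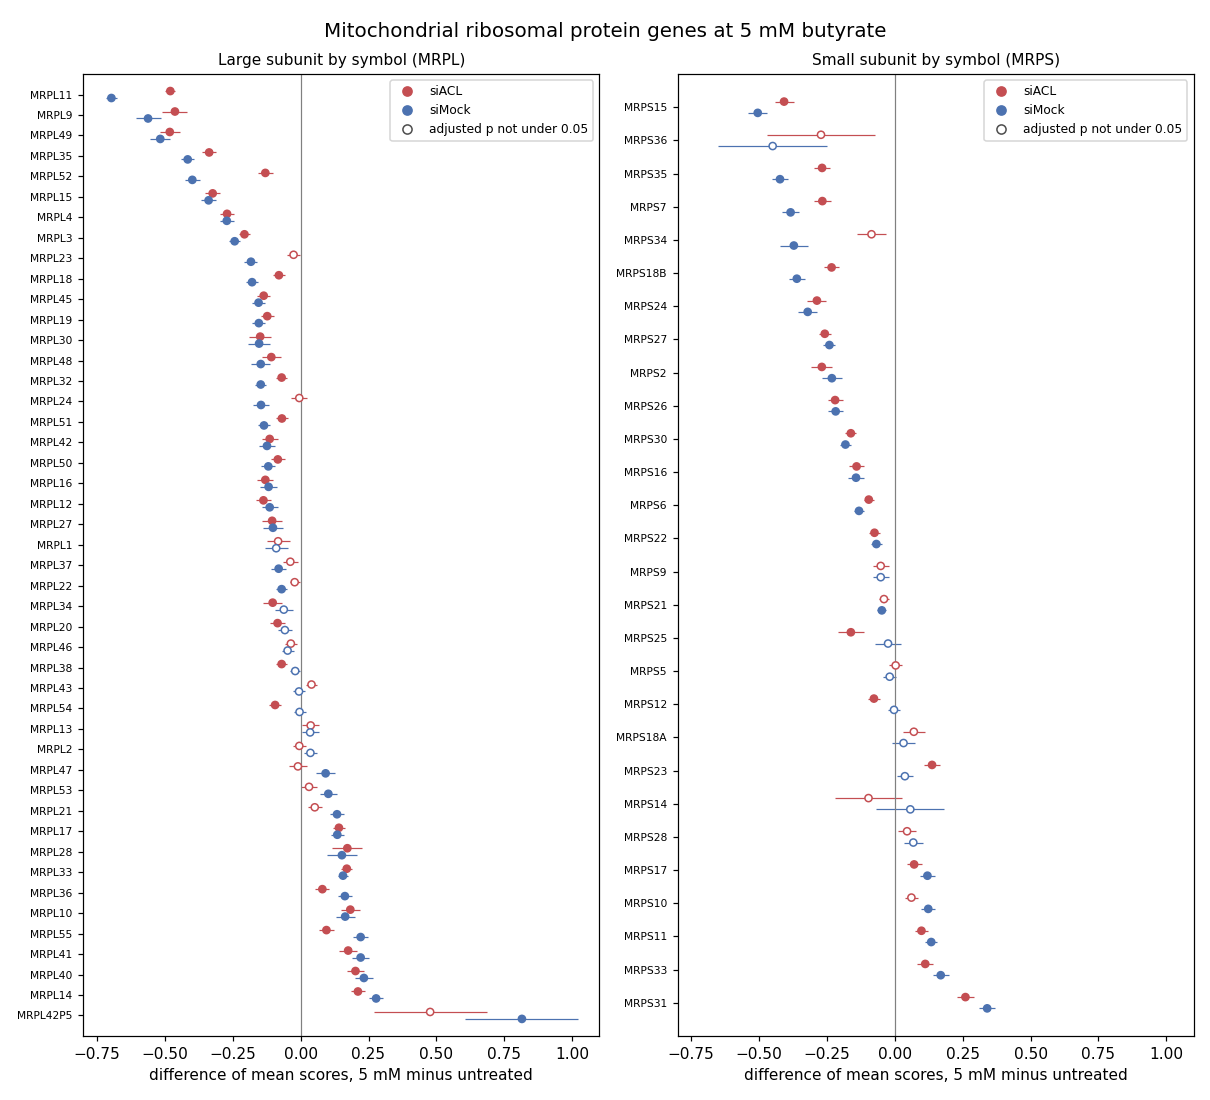
Difference of mean scores at 5 mM butyrate minus untreated (horizontal axis) for each MRPL gene (left) and MRPS gene (right), with siACL in red and siMock in blue, ordered by the siMock difference. Bars are 1 SE, filled points passed an adjusted p of 0.05 and open points did not. Falls reached -0.697 for MRPL11 in siMock, and no gene was called in opposite directions in the 2 arms.

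Among large-subunit genes, MRPL11 fell furthest in siMock. It encodes a conserved protein at the base of the stalk where translation factors bind. Its score was 0.884, 0.882 and 0.923 in siACL at 5 mM, against 1.386, 1.361 and 1.383 in siACL untreated, and 0.736, 0.725 and 0.741 in siMock at 5 mM, against 1.437, 1.425 and 1.43 in siMock untreated. The groups did not overlap in either arm, and the arrays of a group lay close together. The differences were -0.48 in siACL (SE 0.019, adjusted p = 1.39e-12) and -0.697 in siMock (SE 0.019, adjusted p = 7.17e-15). In mean percentile of the array, MRPL11 stood at 81.5 in siACL at 5 mM, against 91.6 in siACL untreated, and at 76.9 in siMock at 5 mM, against 92.4 in siMock untreated.

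MRPL9, MRPL49 and MRPL35 followed. MRPL9, the counterpart of a bacterial protein near the L1 stalk, had 0.29, 0.367 and 0.332 in siACL at 5 mM, against 0.785, 0.781 and 0.812 in siACL untreated. In siMock it had 0.326, 0.18 and 0.108 at 5 mM, against 0.713, 0.774 and 0.815 untreated, with a wider spread at 5 mM than in siACL. Its differences were -0.463 in siACL and -0.562 in siMock (SE 0.046). MRPL49, specific to mitochondria, had 0.494, 0.553 and 0.475 in siACL at 5 mM, against 0.971, 1.019 and 0.977 untreated, and 0.444, 0.426 and 0.426 in siMock at 5 mM, against 0.946, 0.927 and 0.976 untreated. It fell by nearly the same amount in both arms, with differences of -0.482 in siACL and -0.517 in siMock (SE 0.036). MRPL35, of bacterial descent, had 0.789, 0.744 and 0.696 in siACL at 5 mM, against 1.079, 1.065 and 1.097 untreated, and 0.607, 0.66 and 0.67 in siMock at 5 mM, against 1.056, 1.07 and 1.058 untreated. Its differences were -0.337 in siACL and -0.416 in siMock (SE 0.025), and no group overlapped its untreated arrays for any of these 3 genes.

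The MRPS gene that fell furthest in both arms was MRPS15, which encodes a conserved protein that binds the small-subunit ribosomal RNA. Its score was 1.123, 1.063 and 1.068 in siACL at 5 mM, against 1.494, 1.486 and 1.5 in siACL untreated, and 0.959, 0.998 and 0.995 in siMock at 5 mM, against 1.531, 1.464 and 1.473 in siMock untreated. The differences were -0.408 in siACL (SE 0.035, adjusted p = 2.74e-08) and -0.505 in siMock (SE 0.035, adjusted p = 1.08e-09). MRPS35, a mitochondria-specific protein, had 0.987, 0.928 and 0.916 in siACL at 5 mM, against 1.235, 1.172 and 1.227 untreated, and 0.761, 0.796 and 0.819 in siMock at 5 mM, against 1.181, 1.246 and 1.217 untreated. MRPS7, a conserved protein of the head of the small subunit, had 1.029, 0.964 and 1.061 in siACL at 5 mM, against 1.268, 1.312 and 1.274 untreated, and 0.897, 0.897 and 0.971 in siMock at 5 mM, against 1.34, 1.272 and 1.306 untreated. All of these groups were apart, and the differences were -0.268 in siACL and -0.423 in siMock for MRPS35 (SE 0.03) and -0.267 and -0.384 for MRPS7 (SE 0.031). In siACL the next called falls after MRPS15 were MRPS24, with 1.225, 1.306 and 1.237 at 5 mM against 1.552, 1.541 and 1.535 untreated, and MRPS2, with 0.809, 0.874 and 0.88 at 5 mM against 1.141, 1.156 and 1.073 untreated. Their differences were -0.287 (SE 0.035) and -0.269 (SE 0.038). In siMock these 2 genes were lower at 5 mM as well. The MRPS24 mean there was 1.252 against 1.573 untreated, and the MRPS2 difference was -0.232. Both are conserved proteins of the small subunit.

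Rises were fewer and mostly smaller. MRPL42P5 had the largest difference, 0.815 in siMock (SE 0.208, adjusted p = 0.00296), with -0.041, -0.18 and -0.013 at 5 mM against -1.114, -0.728 and -0.838 untreated. In siACL the pseudogene had -0.364, 0.029 and -0.506 at 5 mM, against -0.465, -1.005 and -0.801 untreated, where 1 untreated array lay inside the range at 5 mM and the difference of 0.477 was not called. MRPL14, a conserved protein at the interface of the subunits, had 1.507, 1.413 and 1.502 in siACL at 5 mM, against 1.316, 1.233 and 1.24 untreated, and 1.547, 1.558 and 1.56 in siMock at 5 mM, against 1.261, 1.281 and 1.29 untreated. It rose by 0.211 in siACL and 0.278 in siMock (SE 0.027). MRPL40, MRPL41 and MRPL10 also rose, by 0.202, 0.175 and 0.183 in siACL. In siMock MRPL40 rose by 0.233 and MRPL41 by 0.221. MRPL40 had 1.291, 1.354 and 1.331 in siACL at 5 mM against 1.107, 1.116 and 1.148 untreated, and 1.33, 1.391 and 1.408 in siMock at 5 mM against 1.144, 1.11 and 1.176 untreated. MRPL41 had 1.54, 1.56 and 1.604 in siACL at 5 mM against 1.331, 1.453 and 1.395 untreated, and 1.706, 1.672 and 1.689 in siMock at 5 mM against 1.49, 1.472 and 1.442 untreated. MRPL40 and MRPL41 are specific to mitochondria, and MRPL10 anchors the stalk. MRPL10 had 0.964, 1.012 and 0.975 in siACL at 5 mM against 0.89, 0.782 and 0.73 untreated. In siMock it was higher at 5 mM too, with 1.017, 0.96 and 1.074 against 0.861, 0.864 and 0.832 untreated.

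Among MRPS genes, MRPS31, specific to mitochondria, rose most. It had 1.256, 1.275 and 1.269 in siACL at 5 mM, against 1.027, 1.045 and 0.949 untreated, and 1.366, 1.343 and 1.318 in siMock at 5 mM, against 0.915, 1.043 and 1.048 untreated. The differences were 0.26 in siACL (SE 0.03, adjusted p = 1.04e-06) and 0.34 in siMock (SE 0.03, adjusted p = 2.45e-08). MRPS31 has pseudogene copies, and how its probe separates them was not tested. MRPS33 had 1.226, 1.249 and 1.274 in siACL at 5 mM against 1.17, 1.124 and 1.12 untreated, and 1.227, 1.247 and 1.222 in siMock at 5 mM against 1.021, 1.047 and 1.123 untreated. MRPS11, a conserved protein of the platform, had 1.09, 1.138 and 1.107 in siACL at 5 mM against 1.025, 1.004 and 1.012 untreated, and 1.172, 1.176 and 1.183 in siMock at 5 mM against 0.998, 1.059 and 1.072 untreated. MRPS33 rose by 0.112 in siACL and 0.169 in siMock, and MRPS11 by 0.098 in siACL and 0.134 in siMock. MRPS23 rose by 0.137 in siACL, with 1.353, 1.34 and 1.413 at 5 mM against 1.241, 1.182 and 1.271 untreated. Its difference in siMock was 0.037 and not called, and the difference of the responses was not called either. MRPS10, a conserved protein of the head, rose by 0.123 in siMock, with 1.573, 1.594 and 1.567 at 5 mM against 1.438, 1.475 and 1.453 untreated. In siACL its mean was 1.506 at 5 mM against 1.445 untreated.

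Upstream sequences of 5 of these genes are printed here. MRPL11 and MRPS15 had the largest falls of each subunit in siMock at 5 mM, and MRPL14 and MRPS31 the largest rises among genes with a sequence. MRPL52 is the one of 6 genes with a different response between the arms at 5 mM whose sequence holds the most kinds of motif, so its letters were fixed by that choice. Each is the 250 bases before the transcription start, 5′ to 3′ on the strand of the gene, from RefSeq on GRCh38.p14, with motif letters in capitals. MRPL11 is read at chr11:66438849-66439098 (minus strand), MRPL14 at chr6:44127309-44127558 (minus strand, 1 of its 3 starts in the table), MRPS15 at chr1:36464385-36464634 (minus strand), MRPS31 at chr13:40771191-40771440 (minus strand) and MRPL52 at chr14:22829637-22829886 (plus strand).
MRPL11: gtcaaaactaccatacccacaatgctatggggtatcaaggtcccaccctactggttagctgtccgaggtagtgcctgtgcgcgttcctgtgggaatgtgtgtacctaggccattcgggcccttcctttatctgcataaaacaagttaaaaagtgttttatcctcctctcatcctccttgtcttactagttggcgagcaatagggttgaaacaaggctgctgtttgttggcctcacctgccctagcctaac
MRPL14: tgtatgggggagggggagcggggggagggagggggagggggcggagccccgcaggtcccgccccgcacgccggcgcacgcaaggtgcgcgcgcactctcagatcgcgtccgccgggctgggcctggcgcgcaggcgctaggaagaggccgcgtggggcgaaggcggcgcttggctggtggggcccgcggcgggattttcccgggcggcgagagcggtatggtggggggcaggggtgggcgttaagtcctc
MRPS15: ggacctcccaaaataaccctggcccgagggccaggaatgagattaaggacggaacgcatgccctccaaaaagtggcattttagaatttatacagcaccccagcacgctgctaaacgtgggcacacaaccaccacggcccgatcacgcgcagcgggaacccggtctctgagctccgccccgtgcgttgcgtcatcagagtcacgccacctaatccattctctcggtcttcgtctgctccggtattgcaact
MRPS31: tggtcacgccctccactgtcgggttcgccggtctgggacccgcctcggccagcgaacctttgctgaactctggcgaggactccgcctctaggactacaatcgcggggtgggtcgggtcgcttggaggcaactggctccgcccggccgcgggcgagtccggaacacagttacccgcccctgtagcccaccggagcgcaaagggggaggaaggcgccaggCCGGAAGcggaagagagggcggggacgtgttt
MRPL52: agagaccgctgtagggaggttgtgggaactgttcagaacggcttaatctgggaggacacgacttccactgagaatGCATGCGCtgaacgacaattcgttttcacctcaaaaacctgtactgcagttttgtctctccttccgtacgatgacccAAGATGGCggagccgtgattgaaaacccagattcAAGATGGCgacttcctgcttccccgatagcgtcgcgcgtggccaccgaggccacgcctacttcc
The letters searched on both strands were GCATGCGC for NRF1, CCGGAAG for ETS factors such as GABP, AAGATGGC for YY1 and CACGTG for an E-box, and none of the 4 contains another. These factors are known regulators of nuclear genes for mitochondria. The MRPL11, MRPL14 and MRPS15 stretches hold none of these letters, and a window of another MRPL14 start holds the E-box letters. MRPS31 has the ETS letters starting 32 bases before its start, and MRPL52 has the NRF1 letters 175 bases and the YY1 letters 98 and 64 bases before its start. MRPL52 also has the ETS letters on the other strand, from 5 bases before its start and across it, so they are not in capitals.

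Over 300-base windows that reach from 250 bases before to 50 after a start, 65 of the 74 genes were found with 81 windows. The ETS letters were present in 38.3% of the 81 windows, against 10.3% of all 35116 windows of the table, and the YY1 letters in 28.4%, against 2.89%. NRF1 letters were in 6.17%, against 3.05%, and the E-box in 11.1%, against 7.26%. By subunit, ETS letters were in 37.5% of MRPL and 39.4% of MRPS windows, and YY1 letters in 29.2% and 27.3%. NRF1 letters were in 8.33% of MRPL and 3.03% of MRPS windows, and the E-box in 12.5% and 9.09%, and these differences were not tested. Of 28 genes with the ETS letters, 13 were lower and 8 higher at 5 mM in siMock, and of those without, 22 were lower and 7 higher. Of 21 genes with the YY1 letters, 13 were lower and 3 higher, and of those without, 22 were lower and 12 higher. Among all genes 25.2% were lower and 25.6% higher in that comparison. A match of letters is a description and not a binding site.

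Many of these genes share their upstream region with a neighbour read in the other direction. Of the 65 genes, 18 (27.7%) had a protein-coding gene starting on the other strand within 1000 bases, against 1946 of 15843 coding genes (12.3%). At 5 mM in siMock, 17 of the 18 neighbours were measured. Both genes of a pair were called in the same direction in 6 pairs and in opposite directions in 1, and in 10 at most 1 gene was called. The 10 hold the pair of MRPL46 and MRPS11 in each order. The same counts were not made over all neighbour pairs of the array, so these have no background. MRPL49 and FAU, a cytosolic ribosomal protein gene 49 bases away, both fell, with differences of -0.517 and -0.138. MRPL27 (-0.102) fell with EME1 (-0.491), a DNA repair nuclease gene, and MRPL51 (-0.135) with NCAPD2 (-0.404), a condensin subunit gene. MRPL18 (-0.179) fell with TCP1 (-0.123), a chaperonin subunit gene, and MRPS27 (-0.241) with PTCD2 (-0.152). MRPL14 and TMEM63B both rose, by 0.278 and 0.149. MRPL32 fell by 0.147 while PSMA2, a proteasome subunit gene 202 bases away, rose by 0.439. One pair holds a gene of each subunit: MRPL46 and MRPS11 start 320 bases apart, and MRPL46 was not called (-0.048) where MRPS11 rose by 0.134.

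The lower doses gave part of this picture. In siMock at 0.5 mM, 22 genes were lower (14 MRPL, 8 MRPS) and 3 higher (2 MRPL, 1 MRPS), where 10.1% of all genes were lower and 12% higher. At 2 mM, 35 were lower (20 MRPL, 15 MRPS) and 9 higher (5 MRPL, 4 MRPS), with 19.3% lower and 18.7% higher among all genes. Of the genes with a mean score above 0, 16.1% were lower and 17.5% higher at 0.5 mM, and 29.2% and 26.1% at 2 mM. Shares of the 74 genes that were lower were 29.7%, 47.3% and 51.4% at 0.5, 2 and 5 mM. MRPL9 (-0.276), MRPL11 (-0.169), MRPS15 (-0.18) and MRPS35 (-0.167) led the called falls of each subunit at 0.5 mM. MRPL9 (-0.454), MRPL11 (-0.398), MRPS15 (-0.426) and MRPS18B (-0.261) did so at 2 mM. The rises called at 0.5 mM were MRPL42P5 (0.662), MRPL2 (0.09) and MRPS31 (0.089). MRPL14 (0.178), MRPL10 (0.162), MRPS31 (0.153) and MRPS33 (0.146) led the called rises of each subunit at 2 mM. MRPL42P5 at 0.5 mM was no longer called without siMock untreated replicate 1 (0.552) or 3 (0.69) or without any 1 array of the 0.5 mM group (0.62 to 0.699), and MRPS31 not without siMock untreated replicate 1 (0.045) or without any 1 array of the 0.5 mM group (0.081 to 0.095). Of the 22 genes lower at 0.5 mM, 20 were also lower at 5 mM, and both comparisons use the same untreated arrays. This overlap was not counted over all genes. A fit on only the 6 arrays compared called 8 genes at 0.5 mM and 27 at 2 mM, in place of 25 and 44.

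In siACL few of these genes were called at the lowest dose. At 0.5 mM 1 gene was lower (MRPL35, -0.097) and 1 higher (MRPL40, 0.115), both MRPL, where 2.45% of all genes were lower and 4.79% higher. When any 1 of the 6 arrays was left out, 0 or 1 gene was called. At 2 mM 30 were lower (17 MRPL, 13 MRPS) and 3 higher (all MRPL), where 12.8% of all genes were lower and 13.7% higher. Of the genes with a mean score above 0, 21% were lower and 20% higher at 2 mM. MRPL9 (-0.258), MRPL35 (-0.238), MRPS15 (-0.203) and MRPS34 (-0.193) led the called falls of each subunit, and MRPL40 (0.133) and MRPL14 (0.123) the called rises. MRPS34 lost its call without siACL 2 mM replicate 3 (-0.125). With only the 6 arrays compared, 16 genes were called at 2 mM in place of 33.

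The group means of 26 genes in siACL and 24 in siMock fell at every step of dose, and those of 9 in siACL and 10 in siMock rose at every step. The falling genes made up 35.1% of the 74 in siACL and 32.4% in siMock, against 15.6% and 14.8% of all genes, and the rising ones 12.2% and 13.5%, against 15.1% and 15.2% of all genes. These shares were not counted over the more precise genes with a mean score above 0. MRPL11 was one that fell throughout: its mean score was 1.377, 1.325, 1.199 and 0.896 at 0, 0.5, 2 and 5 mM in siACL, and 1.431, 1.262, 1.033 and 0.734 in siMock. MRPL52, a mitochondria-specific protein, was called in neither arm at 0.5 or 2 mM and fell in both at 5 mM, with means of 0.825, 0.852, 0.824 and 0.695 in siACL and 0.921, 0.848, 0.863 and 0.522 in siMock. Of the 74 genes, 6 were not called at any dose in either arm: MRPL13, MRPL43, MRPS5, MRPS14, MRPS18A and MRPS36. The share of all genes never called was not counted. MRPS14 and MRPS36 are among the least precise genes, and the difference of MRPS36 at 5 mM was -0.272 in siACL and -0.45 in siMock, with an SE of 0.2. MRPS30, a large-subunit protein by structure, fell in both arms at 5 mM (-0.162 in siACL and -0.182 in siMock).

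**Figure D3:**
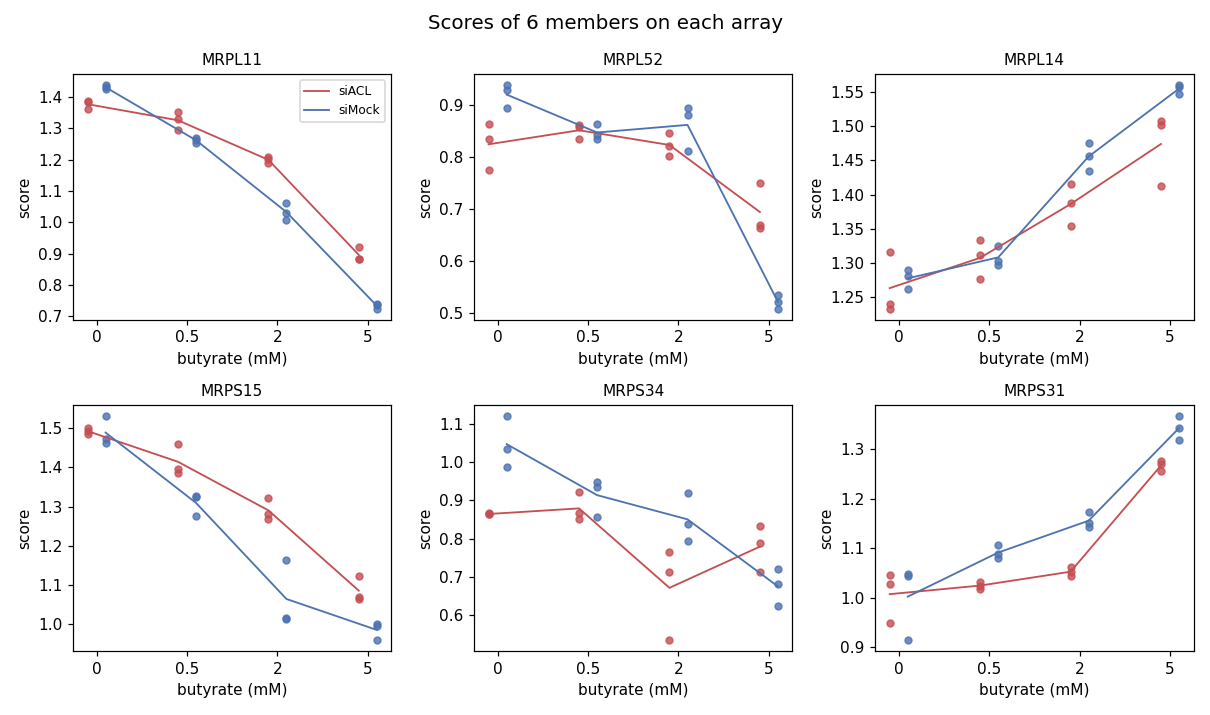
Score (vertical axis) of 6 genes against butyrate dose in mM (horizontal axis, equally spaced doses), with 1 point per array, lines through the means of 3 arrays, siACL in red and siMock in blue. MRPL11, MRPL52, MRPS15 and MRPS34 were lower at 5 mM than untreated in siMock, and MRPL14 and MRPS31 were higher. All 6 differences were smaller in siACL, and the difference of the responses was called for MRPL11, MRPL52 and MRPS34.

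The median score of each subunit was also taken on single arrays. The MRPL median averaged 1.258, 1.246, 1.217 and 1.183 at 0, 0.5, 2 and 5 mM in siACL, with SDs of 0.016, 0.013, 0.004 and 0.002, and 1.269, 1.224, 1.196 and 1.198 in siMock, with SDs of 0.012, 0.004, 0.022 and 0.011 (n = 3 each). The MRPS median averaged 1.26, 1.269, 1.202 and 1.165 in siACL, with SDs of 0.01, 0.015, 0.003 and 0.02, and 1.273, 1.202, 1.145 and 1.178 in siMock, with SDs of 0.006, 0.007, 0.029 and 0.016. The arrays at 5 mM lay below all untreated arrays for both subunits and in both arms. The widest gap between the subunits was in siMock at 2 mM, where the MRPL median was 1.182 to 1.221 and the MRPS median 1.112 to 1.168. There the large-minus-small gap in median difference was 0.047, between 0.0452 and 0.0645 when 1 array was left out. It was 0.00967 at 0.5 mM in siMock, 0.0019 at 0.5 mM in siACL and 0.016 at 2 mM in siACL. The gap at 0.5 mM in siACL changed sign with the array left out (-0.00997 without siACL 0.5 mM replicate 2). That in siMock at 0.5 mM was 0.0254 without siMock untreated replicate 2. The gap of medians on single arrays need not have the sign of the gap in median difference. In siMock it was 0.042, -0.003 and 0.021 at 5 mM, against -0.016, 0.001 and 0.005 untreated. The gap in median difference there was -0.0255.

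**Figure D4:**
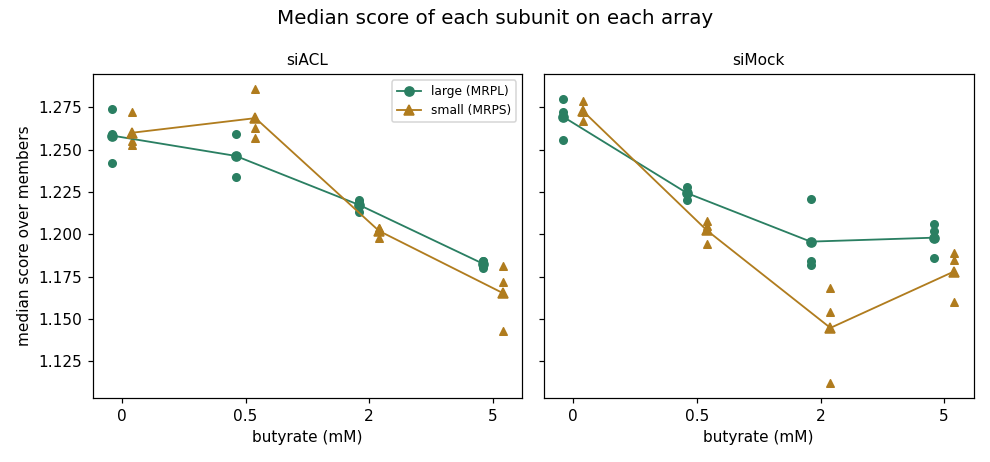
Median score over the MRPL genes (green circles) and MRPS genes (brown triangles) on each array, against butyrate dose in mM, for siACL (left) and siMock (right), with 3 arrays per dose and lines through their means. Both medians were lower at 5 mM than untreated in both arms, and the gap between the subunits was widest in siMock at 2 mM.

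Few of these genes were called for depletion of ACLY alone. Without butyrate, 4 were lower in siACL than in siMock and 1 was higher, where 2.61% of all genes were lower and 3.7% higher. They were MRPL52 (-0.095), MRPL22 (-0.064), MRPS34 (-0.182), MRPS16 (-0.1) and, higher, MRPL15 (0.102), with adjusted p-values between 0.0393 and 0.0498. Leaving out any 1 of the 6 arrays gave at most 1 call, and a fit on only these 6 arrays gave none. The median difference was -0.003, against 0.003 for all genes.

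With butyrate more genes were called between the arms. At 0.5 mM 17 genes were higher in siACL than in siMock (10 MRPL, 7 MRPS) and 1 was lower (MRPL53, -0.106), where 9.26% of all genes were higher and 8.42% lower. Shares of the 74 genes were 23% and 1.35%, against 14% and 13.7% of the genes with a mean score above 0. These comparisons share the siMock 0.5 mM arrays with the siMock response at that dose. MRPL15 had 1.066, 1.139 and 1.102 in siACL at 0.5 mM, against 0.935, 0.88 and 0.903 in siMock, and MRPL9 had 0.648, 0.68 and 0.709 against 0.479, 0.46 and 0.536. Their differences were 0.197 (SE 0.028) and 0.187 (SE 0.046), with groups apart. MRPS17 (0.116) and MRPS2 (0.114) were the largest called MRPS differences, and MRPS2 lost its call without any 1 array. The largest MRPS difference, 0.394, was not called. MRPL53 lost its call without siACL 0.5 mM replicate 1 (-0.108) or 3 (-0.097), or siMock 0.5 mM replicate 2 (-0.11) or 3 (-0.094). Leaving out any 1 array of either group gave 9 to 12 calls in place of 18, and a fit on only the 6 arrays compared gave 4.

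At 2 mM 11 genes were higher in siACL than in siMock (7 MRPL, 4 MRPS) and 6 lower (3 of each), where 10.6% of all genes were higher and 8.52% lower. Shares of the 74 genes, 14.9% higher and 8.11% lower, did not exceed those of the genes with a mean score above 0 (15.9% and 14%). MRPL15 (0.251), MRPL9 (0.222), MRPS15 (0.227) and MRPS18B (0.18) were higher, and MRPL41 (-0.145), MRPL10 (-0.124), MRPS34 (-0.179) and MRPS11 (-0.108) lower. MRPS34 lost its call without siACL 2 mM replicate 3 (-0.111) or siMock 2 mM replicate 3 (-0.145), and MRPL10 without siACL 2 mM replicate 1 (-0.122) or 2 (-0.111), or siMock 2 mM replicate 2 (-0.12) or 3 (-0.11). A fit on only the 6 arrays compared gave 2 calls in place of 17. At 5 mM 10 were higher (8 MRPL, 2 MRPS) and 7 lower (6 MRPL, 1 MRPS), where 8.8% of all genes were higher and 4.91% lower. Shares of the 74 genes, 13.5% higher and 9.46% lower, lay near those of the genes with a mean score above 0 (14% and 8.35%). MRPL52 had 0.664, 0.751 and 0.67 in siACL, against 0.509, 0.521 and 0.536 in siMock. MRPL11, as given above, MRPL15 (0.117), MRPL35 (0.097), MRPS35 (0.152) and MRPS7 (0.096) were also higher in siACL. The MRPS7 arrays were the only ones of these named genes that overlapped between the arms, and its call ended without siACL 5 mM replicate 1 (0.091) or 3 (0.075), or siMock 5 mM replicate 1 or 2 (0.084 each). MRPL15 lost its call without siACL 5 mM replicate 1 (0.086), and MRPL35 without that array (0.074) or siMock 5 mM replicate 1 (0.078). MRPL53 (-0.141), MRPL41 (-0.121), MRPL55 (-0.121), MRPL21 (-0.111) and MRPS16 (-0.097) were lower in siACL. The call of MRPS16 ended without siACL 5 mM replicate 2 (-0.103) or 3 (-0.082), or siMock 5 mM replicate 1 (-0.059). That of MRPL41 ended without siACL 5 mM replicate 1 (-0.107) or 2 (-0.117), or siMock 5 mM replicate 1 (-0.112). A fit on only the 6 arrays compared gave 1 call in place of 17.

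The size of the butyrate response was then compared between the arms, as the siACL change minus the siMock change. All genes called here had a positive value. At 0.5 mM this was MRPL11 alone (0.117), where 1.39% of all genes were called higher and 1.72% lower. At 2 mM they were MRPL11 (0.221), MRPL15 (0.149), MRPS15 (0.223) and MRPS18B (0.232), where 3.46% of all genes were higher and 2.73% lower. At 5 mM they were MRPL11 (0.216), MRPL23 (0.157), MRPL24 (0.141), MRPL52 (0.269), MRPS34 (0.287) and MRPS35 (0.155), where 5.5% of all genes were higher and 3.35% lower. Each of these genes fell in siMock at the dose concerned, so a positive value is a smaller fall or none in siACL. Such a value also holds any gap between the untreated arms. The MRPS34 mean was 0.865 in siACL and 1.047 in siMock untreated, and 0.779 and 0.675 at 5 mM. For MRPL24 the means were 1.473 and 1.565 untreated, and 1.468 and 1.418 at 5 mM. In both genes the untreated gap was the larger part. The shares of the 74 genes called higher, 1.35%, 5.41% and 8.11%, lay near those of all genes.

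MRPL23 and MRPL24 encode conserved proteins at the exit of the peptide tunnel. MRPL23 had 1.315, 1.349 and 1.364 in siACL at 5 mM, against 1.371, 1.36 and 1.376 untreated, and 1.292, 1.214 and 1.255 in siMock at 5 mM, against 1.442, 1.433 and 1.436 untreated. The change was -0.026 in siACL and -0.183 in siMock. MRPL24 had 1.452, 1.483 and 1.468 in siACL at 5 mM, against 1.477, 1.474 and 1.468 untreated, and 1.329, 1.441 and 1.484 in siMock at 5 mM, against 1.541, 1.566 and 1.587 untreated. Its siMock group at 5 mM was spread widely, and the difference between the arms was 0.096 and not called without siMock 5 mM replicate 1. It was not called either, at 0.13 to 0.143, without any 1 of the siACL untreated arrays, siACL 5 mM replicate 2 or 3, or siMock untreated replicate 2 or 3. MRPL52 changed by -0.13 in siACL and by -0.399 in siMock, with 0.835, 0.776 and 0.865 in siACL untreated and 0.895, 0.929 and 0.939 in siMock untreated.

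MRPS34 is specific to mitochondria, and its human mutations cause a mitochondrial disease. It had 0.834, 0.79 and 0.714 in siACL at 5 mM, against 0.866, 0.864 and 0.864 untreated, and 0.72, 0.681 and 0.625 in siMock at 5 mM, against 1.035, 0.987 and 1.12 untreated. Its change was -0.086 in siACL, not called, and -0.372 in siMock, and its untreated siACL arrays lay below the untreated siMock arrays. The MRPS34 difference was not called when 1 of 3 arrays was left out: it was 0.25 without siMock untreated replicate 3, 0.262 without siMock 5 mM replicate 3 and 0.259 without siACL 5 mM replicate 1. MRPS18B had 1.284, 1.283 and 1.203 in siACL at 2 mM, against 1.273, 1.311 and 1.273 untreated, and 1.074, 1.058 and 1.098 in siMock at 2 mM, against 1.295, 1.351 and 1.368 untreated. Its arrays at 2 mM overlapped the untreated ones in siACL and lay below them in siMock, while at 5 mM it was lower in both arms. Without siMock untreated replicate 3, 3 of the 6 genes were called at 5 mM, and without siMock untreated replicate 2 or siACL untreated replicate 2, 4 were called. MRPS35 at 5 mM lost its call without siACL untreated replicate 2 (0.135), siACL 5 mM replicate 1 (0.133), siMock untreated replicate 2 or siMock 5 mM replicate 1 (0.139 each), or siMock untreated replicate 3 (0.153). MRPL15 at 2 mM lost its call without siACL untreated replicate 2 (0.137) or 3 (0.151), siACL 2 mM replicate 1 (0.131), siMock untreated replicate 3 (0.13), or siMock 2 mM replicate 1 (0.141) or 2 (0.15). MRPL11 at 0.5 mM lost its call without siACL untreated replicate 2 (0.11), siACL 0.5 mM replicate 2 (0.115) or 3 (0.104), or siMock 0.5 mM replicate 3 (0.113).

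The arms were then set side by side. At 5 mM, 32 genes were lower in both, 13 were higher in both and none was called in opposite directions. The 32 made up 84.2% of the genes lower in siACL and 84.2% of those lower in siMock, and the 13 made up 92.9% of the genes higher in siACL and 72.2% of those higher in siMock. Over all genes the same shares were 82.2% and 73.6% for lower genes and 84.6% and 74.9% for higher genes, with 0.347% called in opposite directions, so the overlap in the 74 genes was near that of the array. Of the 32, 25 had the smaller fall in siACL, and of the 13, 9 had the smaller rise in siACL. Over all genes, 70.7% of those lower in both had the smaller fall in siACL and 64.1% of those higher in both the smaller rise. Across the 74 genes the differences at 5 mM correlated with Pearson's r = 0.939 (0.931 without MRPL42P5), against 0.758 over all genes. The 74 genes have smaller residual SDs than all genes, and no r was taken over genes of like precision. The arms share no arrays, and genes are not independent replicates. At 2 mM 27 were lower in both and 3 higher in both. The 27 made up 90% of the genes lower in siACL and 77.1% in siMock, against 76.5% and 50.8% over all genes. The 3 made up 100% of the genes higher in siACL and 33.3% in siMock, against 80.2% and 58.9%.

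Other genes of mitochondrial translation were read from the same fit, where at 5 mM 22.6% of all genes were lower and 22.7% higher in siACL, and 25.2% were lower and 25.6% higher in siMock. The lists hold few genes, and their counts were not tested against these shares. Of 7 measured mitochondrial ribosomal proteins with other symbols, 2 were higher and 3 lower at 5 mM in siACL, and 3 were higher and 3 lower in siMock. GADD45GIP1, a large-subunit protein also known as CRIF1, fell in both arms (-0.425 in siACL and -0.579 in siMock), as did ICT1, a large-subunit protein with peptidyl-tRNA hydrolase activity (-0.159 and -0.254). DAP3 of the small subunit rose (0.121 in siACL and 0.222 in siMock), as did MRP63 of the large subunit (0.149 and 0.213), and CHCHD1 of the small subunit fell (-0.196 and -0.151). PTCD3, also of the small subunit, had a difference of -0.036 in siACL, not called, and rose by 0.911 in siMock (SE 0.26), and the difference of the responses was not called. Of 12 translation factors, 3 were higher and 4 lower in each arm. The release factor MTRF1L rose by 0.277 in siACL and 0.324 in siMock, and TACO1, an activator of COX1 translation, fell (-0.233 and -0.286). C12orf65, a rescue factor for stalled ribosomes, also fell in both arms (-0.385 in siACL and -0.237 in siMock). The elongation factor GFM1 rose by 0.203 in siACL and 0.291 in siMock, and the initiation factor MTIF3 by 0.215 in siACL and 0.198 in siMock.

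Of 23 factors that assemble the ribosome or modify its RNA, 14 were lower and 3 higher at 5 mM in siACL, and 11 were lower and 5 higher in siMock, with medians of -0.177 and -0.158. The RNA methyltransferase NSUN4 fell in both arms (-0.307 in siACL and -0.326 in siMock). The pseudouridine synthase family member RPUSD4 (-0.335 in siACL and -0.277 in siMock), FASTKD2 (-0.288 and -0.384) and the RNA chaperone ERAL1 (-0.243 and -0.307) also fell in both. MRM1, an RNA methyltransferase, fell in siACL (-1.155, SE 0.371) and was not called in siMock (-0.803). MTG1, a GTPase, fell in siACL (-0.871, SE 0.334) and was not called in siMock (0.257). MPV17L2 was not called in siACL (0.128) and rose by 0.326 in siMock. The difference of the responses was not called for MRM1, MTG1 or MPV17L2. C4orf14, the GTPase now called NOA1, had a more negative change in siACL than in siMock (-0.122). Of 17 regulators of mitochondrial transcription and biogenesis, 7 were lower and 5 higher in siACL, and 5 were lower and 6 higher in siMock. The coactivator PPARGC1A rose by 0.793 in siACL and 1.735 in siMock (SE 0.234), while its relative PPRC1 fell (-0.525 in siACL and -0.617 in siMock, SE 0.03). TFB2M, a factor of mitochondrial transcription, fell (-0.324 in siACL and -0.206 in siMock), and POLG2, a subunit of the mitochondrial DNA polymerase, rose (0.278 in siACL and 0.459 in siMock). The changes of POLG2 (-0.181), TFB2M (-0.118) and MYC (-0.115) were more negative in siACL than in siMock.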

How the data were processed

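Total RNA was prepared with Trizol and turned into biotin-labelled cRNA for Illumina arrays, per the labels. The deposited score values of 20747 entries were used as they stand; how the authors made them is not given in the sources used here. On every array the values lie within 0.00091 of the normal quantiles of the ranks. A second deposited table holds 48 per-sample columns (signal and detection p) whose names match no sample's labels. They were not used, so signal over background is unknown, and only the annotation of that table (34592 entries) was read. The 18172 entries with a symbol were tested, 2575 without one were left out, and 18 entries have no annotation.

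All 24 arrays were fitted in limma 3.58.1 (R 4.3.3) with 1 mean per group, no block and no filter (residual degrees of freedom 16, prior 1.05). The 13 comparisons set every dose beside the untreated arrays of its arm, the arms beside each other at every dose, and the 2 responses beside each other. The fit was tested on simulated data. The 3 arrays per group limit the precision, and slides and culture dates are unknown. Replicate numbers in the labels do not pair the arrays: deviations of arrays with the same number had a median correlation of -0.001 (highest 0.03).

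Of the 74 genes, 71 were matched to RefSeq by accession and 3 by symbol. Members, gene lists and tests were chosen with earlier results of these data known, so no list was tested as a set. Named were, among called genes, the 4 largest rises and 4 largest falls of each subunit for the 5 mM comparisons, siACL against siMock untreated and at 5 mM, and the 5 mM difference of responses, the 2 largest for other comparisons, and up to 4 genes of each list at 5 mM. Genes outside this rule are named in the neighbour pairs and as never called. Alternatives were the arrays of a comparison alone, array weights, a trended robust prior, a replicate block, a stricter threshold (0.01), percentile ranks, genes with a mean score above 0, all entries, another subunit assignment and leaving out each array. Leaving out MRPL42P5 was chosen after seeing the data. Figures were drawn with matplotlib 3.10.9 in Python 3.11.15.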

Additional observations from a re-analysis of the deposited data

Results flagged for a closer look

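The following butyrate responses differed between the arms by the test of the difference itself (siACL change minus siMock change, limma, adjusted over all genes). For MRPL11 the difference was 0.117 at 0.5 mM (adjusted p = 0.0221), 0.221 at 2 mM (adjusted p = 6.43e-05) and 0.216 at 5 mM (adjusted p = 5e-05). At 2 mM it was 0.149 for MRPL15 (adjusted p = 0.0327), 0.223 for MRPS15 (adjusted p = 0.011) and 0.232 for MRPS18B (adjusted p = 0.002). At 5 mM it was 0.157 for MRPL23 (adjusted p = 0.00725), 0.141 for MRPL24 (adjusted p = 0.0372), 0.269 for MRPL52 (adjusted p = 0.000258), 0.287 for MRPS34 (adjusted p = 0.0199) and 0.155 for MRPS35 (adjusted p = 0.0275). All 11 values are positive. For MRPS34 and MRPL24 the larger part of the value was a lower untreated mean in siACL than in siMock. MRPL11 at 2 and 5 mM, MRPS18B, MRPL23 and MRPL52 kept their calls under all 20 alternatives run for them.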

How the results depend on the processing

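Among the 74 genes, the following counts of calls moved by over 1.5 times. With only the arrays compared, the counts were 8 and 27 for siMock at 0.5 and 2 mM, 0 and 16 for siACL at 0.5 and 2 mM, 0, 4, 2 and 1 for siACL against siMock at 0, 0.5, 2 and 5 mM, and 0 and 2 for the difference of responses at 0.5 and 2 mM. At an adjusted p under 0.01 they were 0 and 21 for siACL at 0.5 and 2 mM, 0, 7, 10 and 10 for siACL against siMock, and 0, 2 and 3 for the difference of responses. With percentile ranks 1 gene was called for siACL at 0.5 mM, 1 for siACL against siMock untreated and 0 for the difference of responses at 0.5 mM. For that last comparison array weights, a trended robust prior and genes with a mean score above 0 each gave 2, and the last gave 10 at 5 mM. For siACL against siMock untreated, all entries gave 0 and the replicate block 1, and the block moved no other count by over 1.5 times. In percentile points the large-minus-small gap was 1.5 for siMock at 2 mM, -0.157 for siMock at 5 mM and 0.856 for siACL at 5 mM.

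Leaving out 1 array gave 21 to 24, 37 to 44 and 51 to 56 calls for siMock at 0.5, 2 and 5 mM, 0 to 1, 25 to 28 and 45 to 50 for siACL, 0 to 1, 9 to 12, 13 to 17 and 12 to 15 for siACL against siMock, and 0 to 2, 3 to 4 and 3 to 7 for the difference of responses. The large-minus-small gap ranged from 0.00616 to 0.0254, 0.0452 to 0.0645 and -0.0406 to -0.00978 in siMock and from -0.00997 to 0.00944, 0.0134 to 0.0273 and -0.00425 to 0.0367 in siACL. It ranged from -0.0109 to 0.00546, -0.0308 to -0.00747, -0.04 to -0.0262 and -0.0141 to -0.00224 for siACL against siMock, and from -0.0335 to -0.00402, -0.0318 to -0.00358 and -0.00594 to 0.021 for the difference of responses. No named call reversed, and 55 of 95 kept their call in every alternative. The cause of these shifts was not tested, beyond the fewer arrays or genes that an alternative uses.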
